A study of Mus musculus with 5 samples.

Results

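The 26S proteasome is the protease that degrades proteins tagged with ubiquitin. Its barrel-shaped core particle is built from rings of alpha subunits (Psma genes), which gate the entrance, and rings of beta subunits (Psmb genes), some of which carry the proteolytic sites. The regulatory particle docks on the core: its Psmc genes encode the ring of ATPases that unfold substrates, and its Psmd genes encode scaffold, ubiquitin receptor and deubiquitinase subunits. Subunit genes are known for being expressed together in all cells, in part through the transcription factor NFE2L1, while interferon swaps 3 catalytic beta subunits for immune counterparts. The genes described here are the constitutive ones, chosen by symbol: protein-coding mouse genes whose symbol starts with Psma, Psmb, Psmc or Psmd and a digit, without the immune subunits Psmb8, Psmb9 and Psmb10. They number 37 of the 49246 genes with a value in every library, 16 of the core particle and 20 of the regulatory particle. The remaining one, Psmc3ip, encodes a meiotic recombination protein, is no proteasome subunit and is given apart.

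RNA was sequenced from bone marrow-derived macrophages of wild-type C57BL/6 mice, grown out of marrow over 6 days with CSF1 or L929-conditioned supernatant. All 5 libraries received interleukin 4 (IL-4, 10 ng/ml), a cytokine that turns macrophages to the alternative (M2) state, for 24 h. In 3 libraries (replicates 3, 4 and 5) the cells had first been given 30 µM CBR-5884, which inhibits PHGDH, an enzyme of serine synthesis, and in 2 (replicates 3 and 5) solvent. The comparison asks how the inhibitor changes RNA levels in macrophages under IL-4, and no library without IL-4 is used here. The labels do not tie replicates to animals or cultures; a p-value here reflects the spread between libraries, which may be technical. Depth, taken from coverage divided by FPKM, came to 28310000 to 30700000 fragments per library. FPKM counts fragments per kilobase of transcript, scaled by library depth, so levels can be set beside each other between genes. Of 8 macrophage markers all passed the filter of a mean FPKM of at least 1, with Adgre1, which encodes F4/80, at 299 to 338 FPKM across the libraries. Log2 fold changes of the 8, CBR-5884 over solvent, were positive in 4 and negative in 4. They ran from -0.45 for Fcgr1 to 0.30 for Itgam, with 0.19 for Cd68 and -0.27 for Cd14 (smallest adjusted p of the 8 = 0.132 by limma). The T cell genes Cd3e and Cd3d and the erythroid genes Hbb-bs and Hba-a1 were listed at 0 in every library, and Cd79a and Ms4a1 of B cells did not exceed 0.108 FPKM. Among markers of other cells that passed the filter, the monocyte gene Ccr2 was called lower, at 3.45, 3.71 and 3.54 FPKM after CBR-5884, against 7.66 and 8.19 after solvent (log2 fold change -0.97, SE 0.07, adjusted p = 0.0395 by limma). The neutrophil gene S100a8 was at 9.32, 10.6 and 10.0 FPKM after CBR-5884, against 10.1 and 7.03 after solvent. S100a9 was at 0.934, 0.242 and 2.67 FPKM after CBR-5884, against 9.49 and 2.35 after solvent (log2 fold change -1.52, SE 0.70, adjusted p = 0.322 by limma). Ngp, Camp and Ltf did not reach the filter and were lower in every CBR-5884 library than in both solvent libraries, and Ly6g was at 0 in every library. The fibroblast gene Col1a1 was at 4.67, 6.88 and 4.17 FPKM after CBR-5884, against 8.19 and 7.83 after solvent (adjusted p = 0.249 by limma), and Col1a2 was at 5.33 to 9.96 FPKM. Itgax, listed for dendritic cells, was at 328 to 432 FPKM, and Cd4 did not exceed 0.269 FPKM. The part of such cells in the values of the proteasome genes was not tested. These are bulk values, in which fewer cells of a type and less RNA per cell cannot be told apart.

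Levels of the constitutive proteasome genes after CBR-5884 were close to those after solvent. Of 35 members tested, none passed the test (limma, adjusted p below 0.05 over 10770 genes tested), where 0.223% of all genes tested did (0.0464% higher and 0.176% lower). The smallest adjusted p among them was 0.177. Log2 fold changes of the 34 tested subunit genes ran from -0.23 to 0.20, with 15 positive and 19 negative. Over all genes tested the median log2 fold change was -0.03, with 44.3% positive and 55.7% negative. At an unadjusted limma p below 0.05, 5 members stood out, 2 higher and 3 lower with CBR-5884, which is 14.3% of the 35 against 19.6% of all genes tested (7.24% higher and 12.4% lower). That is close to the background share, and nothing particular to the members is read from it. The lowest bound of any subunit gene's 95% interval was -0.46 and the highest 0.62, both on the log2(FPKM + 1) scale, and 29 of the 34 intervals held 0. Intervals of this width allow shifts of up to that size, so equal levels are not shown. Of the 35 members 16 changed sign in at least 1 of the alternatives tried, among them Psmb6, Psma5, Psma6 and Psmd2 under other scalings. The other 19 kept theirs, among them Psmb3, Psmc4, Psmc6, Psmd4 and Psmd14, the 5 with an unadjusted p below 0.05. The alternatives use the same libraries, so a kept sign is no separate support for a change.

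**Figure D1:**
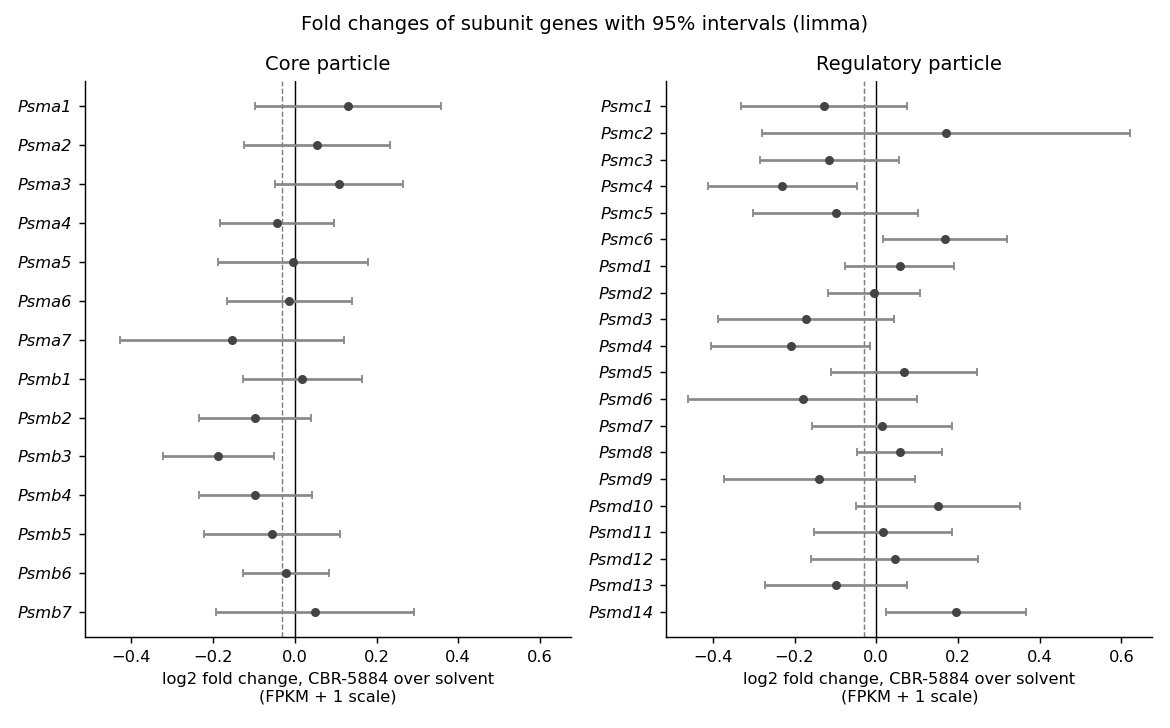
Log2 fold change of each tested subunit gene, CBR-5884 over solvent on the log2(FPKM + 1) scale, with points for limma's estimate and bars for its 95% interval; the solid line marks 0 and the dashed line the median of all genes tested (-0.03). Estimates lie between -0.23 and 0.20, and 29 of 34 intervals cross 0.

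Levels differed far more between subunit genes than between treatments. Mean FPKM over the 5 libraries ran from 68.1 to 187 among the 14 tested core genes, a range of 2.74-fold, with a median of 99.5. Among the 20 regulatory genes it ran from 7.72 to 159, a range of 20.5-fold, with a median of 46.6. Psmb6 led the core particle and Psmd8, a lid subunit gene, led the regulatory particle. The lowest regulatory genes were Psmd9, Psmd5 and Psmd10, at means of 7.72, 10.7 and 17.8 FPKM, and these encode chaperones that assemble the ATPase ring and are not part of the finished particle. Summed over its genes, the core particle was at 1354, 1400 and 1429 FPKM after CBR-5884, against 1375 and 1457 after solvent. The regulatory sums were 959.8, 1042 and 1009 FPKM after CBR-5884, against 1024 and 1014 after solvent. The ratio of the core sum to the regulatory sum was 1.41, 1.34 and 1.42 after CBR-5884 and 1.34 and 1.44 after solvent. In all 3 measures the groups overlapped.

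**Figure D2:**
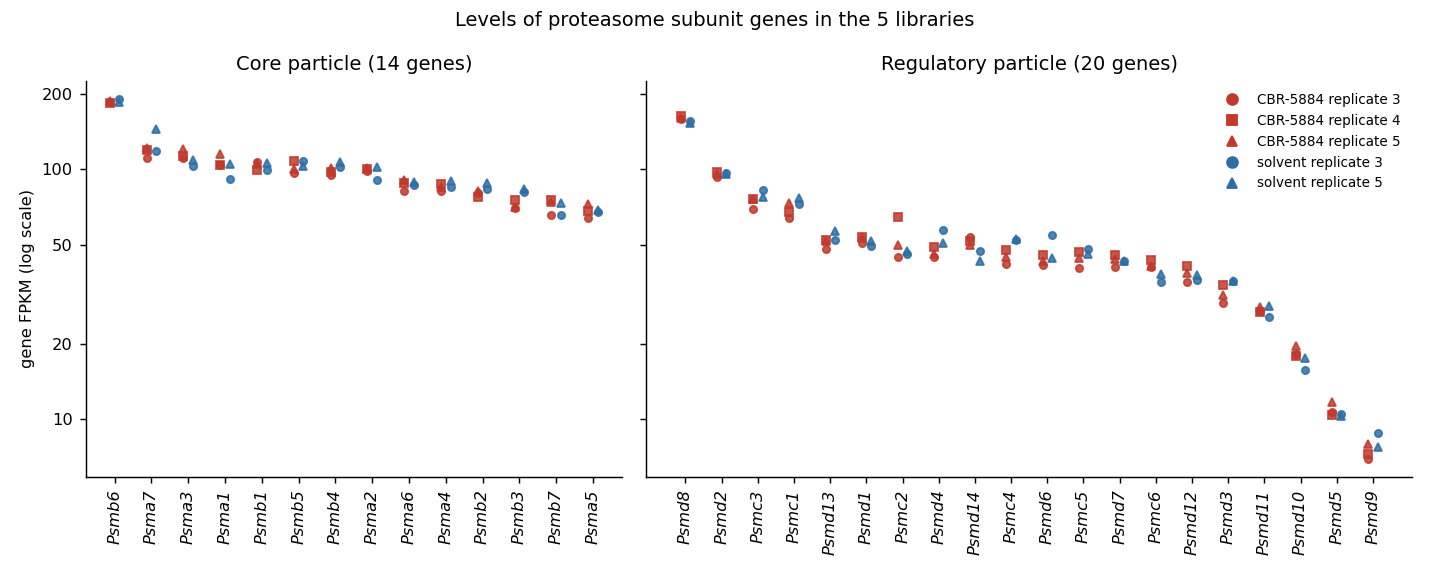
Gene FPKM (log scale) of the 14 core and 20 regulatory genes tested, ordered by mean, with 1 symbol per library (red CBR-5884, blue solvent; circle, square and triangle for replicates 3, 4 and 5). Means over the 5 libraries span 68.1 to 187 FPKM in the core and 7.72 to 159 FPKM in the regulatory particle, and red and blue symbols lie close together within a gene.

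Subunit genes also varied little between libraries of one group. The median residual standard deviation, the spread within groups on the log2(FPKM + 1) scale, was 0.06 for core and 0.07 for regulatory genes. It was 0.10 over all genes tested and 0.09 over the 6341 genes within the subunits' range of mean FPKM. Those 6341 genes are not matched in level, with a median mean FPKM of 20.1, against 99.5 for core and 46.6 for regulatory genes. The part of level in the smaller spread was not tested. Psmd8, Psmb6 and Psmd2, a scaffold gene of the base, had the smallest values at 0.018, 0.021 and 0.027. Psmc2, Psmd6 and Psma7 had the largest at 0.22, 0.13 and 0.13, and each of these had 1 library that stood apart, described with its transcripts after the regulatory particle.

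In the core particle 5 of 14 tested genes had a positive and 9 a negative estimate, and the median log2 fold change was -0.02. The alpha subunit genes were split, 3 positive and 4 negative, and none reached an unadjusted p below 0.05. Psma3 (chromosome 12, 70974621 to 70996347, GRCm38) was at 111, 113 and 121 FPKM after CBR-5884, against 103 and 109 after solvent. It was the only tested alpha gene whose 3 CBR-5884 libraries lay above both solvent libraries, as 16.6% of all genes tested did (log2 fold change 0.11, SE 0.06, adjusted p = 0.381 by limma). Psma1 (chromosome 7, 114264606 to 114276118) was at 104, 104 and 115 FPKM after CBR-5884, against 91.8 and 105 after solvent. Its groups overlapped, though its estimate was the largest of the core particle (log2 fold change 0.13, SE 0.09, adjusted p = 0.456 by limma). Psma7 had the smallest estimate among alpha genes, with 112, 119.7 and 122 FPKM after CBR-5884, against 119 and 145 after solvent (log2 fold change -0.15, SE 0.10, adjusted p = 0.46 by limma). The 4 other alpha genes, Psma2, Psma4, Psma5 and Psma6, had estimates between -0.04 and 0.05 and overlapping groups.

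Among the beta subunit genes 2 were positive and 5 negative. Psmb3, a non-catalytic subunit (chromosome 11, 97703399 to 97713500), was the core gene with the smallest p. It was at 70.2, 75.3 and 70.8 FPKM after CBR-5884, against 81.3 and 83.2 after solvent, so all 3 CBR-5884 libraries lay below both solvent libraries. The difference did not pass the test (log2 fold change -0.19, SE 0.05, limma unadjusted p = 0.0174, adjusted p = 0.177), and over the alternatives tried its adjusted p was 0.114 to 0.366. Psmb2 was at 80.2, 77.8 and 82.0 FPKM after CBR-5884, against 83.1 and 88.3 after solvent (limma adjusted p = 0.374). Psmb4 was at 94.5, 97.8 and 101 FPKM after CBR-5884, against 102 and 107 after solvent (limma adjusted p = 0.382). Both are non-catalytic, and with Psmb3 they made 3 of 14 core genes with every CBR-5884 library below both solvent libraries, an arrangement found in 24.9% of all genes tested.

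The 3 genes of the proteolytic sites did not separate by treatment. Psmb6, the caspase-like site (chromosome 11, 70525367 to 70527858), was at 186, 184 and 188 FPKM after CBR-5884, against 191 and 186 after solvent. Its 95% interval was the narrowest of the core, -0.13 to 0.08 (log2 fold change -0.02, SE 0.04, adjusted p = 0.783 by limma). Psmb5, the chymotrypsin-like site (chromosome 14, 54614119 to 54618022), was at 97.1, 108 and 100.4 FPKM after CBR-5884, against 108 and 103 after solvent (log2 fold change -0.05, SE 0.06, adjusted p = 0.658 by limma). Psmb7, the trypsin-like site (chromosome 2, 38588036 to 38644087), was at 65.9, 75.7 and 74.2 FPKM after CBR-5884, against 65.4 and 73.5 after solvent (log2 fold change 0.05, SE 0.09, adjusted p = 0.785 by limma). Exons of Psmb7 overlap those of Nek6 on the opposite strand by 405 nt, and those of Psmb5 hold the microRNA gene Mir686; whether Cufflinks used the strand is not known. Psmb5, Psmb6 and Psmb7 also have annotated pseudogenes, with which reads could be shared. The level of Psmb6 was above those of Psmb5 and Psmb7 in each of the 5 libraries. The tissue-restricted core genes were near 0: Psmb11, the thymic subunit, did not exceed 0.045 FPKM, and Psma8, the testis subunit, was at 1.1, 0.933 and 1.06 FPKM after CBR-5884, against 0.805 and 0.582 after solvent. Neither reached a mean FPKM of 1, and neither was tested.

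Upstream sequence is shown for Psmb5 and Psmb6 because both proteolytic genes hold the core of the antioxidant response element, the motif read by NFE2L1 and its relative NFE2L2 (NRF2). The motif searched was TGACNNNGC on both strands, in RefSeq windows (GRCm38.p6) from 250 bases before to 50 after a gene's start, which 29 of the 36 proteasome genes had. Psma8, Psmb1, Psmb2, Psmb7, Psmc3, Psmd3 and Psmd7 had no entry in the table used. The 250 bases before each start follow, 5′ to 3′ on the gene's strand, with the motif in capitals. Psmb5 lies on the minus strand at chr14:54617996-54618245 and Psmb6 on the plus strand at chr11:70525107-70525356.
Psmb5: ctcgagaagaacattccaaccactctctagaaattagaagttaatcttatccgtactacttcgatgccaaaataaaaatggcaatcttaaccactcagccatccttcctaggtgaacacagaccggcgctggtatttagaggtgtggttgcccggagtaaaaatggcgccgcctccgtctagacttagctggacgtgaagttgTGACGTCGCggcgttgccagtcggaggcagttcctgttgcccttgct
Psmb6: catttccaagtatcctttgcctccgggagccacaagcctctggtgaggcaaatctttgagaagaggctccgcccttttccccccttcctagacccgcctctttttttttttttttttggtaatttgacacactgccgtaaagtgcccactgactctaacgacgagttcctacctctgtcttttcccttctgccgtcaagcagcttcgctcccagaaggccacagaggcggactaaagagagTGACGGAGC

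A gene counted as holding a motif if any of its windows did. TGACNNNGC was found in 5 of the 29 proteasome genes with a window (17.2%), against 13.99% of the 27025 genes with a window. The other 3 genes were Psmc6, an ATPase, Psmd9, an assembly chaperone, and Psmd12, a lid subunit. Their matches are shown with up to 10 flanking bases on the gene's strand, the motif again in capitals; for Psmc6 and Psmd12 it reads on the opposite strand.
Psmc6: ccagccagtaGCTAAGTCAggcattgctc
Psmd9: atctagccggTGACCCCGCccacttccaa
Psmd12: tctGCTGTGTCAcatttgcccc
Log2 fold changes of the 5 genes with the motif ran from -0.14 to 0.17, with a median of -0.02, 2 positive and 3 negative. The 23 tested genes with a window and no match had a median of -0.01, with 10 positive and 13 negative. The wider form TGANNNNGC takes in every TGACNNNGC match. It was found in 17 of 29 genes (58.6%, against 45.0% of all genes), in 9 of 12 core and 8 of 17 regulatory genes. The motif CCAAT was found in 12 of 29 (41.4%, against 41.1%). Gclm, a glutathione synthesis gene and known NRF2 target whose window also holds TGACNNNGC, was at 331, 345 and 329 FPKM after CBR-5884, against 224 and 212 after solvent. The log2 fold change of Gclm was 0.62 (SE 0.05, adjusted p = 0.0479 by limma), a call lost in 12 of the 17 alternatives. A match says only that these letters are in the window.

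In the regulatory particle 10 of 20 genes had a positive and 10 a negative estimate, and the median log2 fold change was 0.00. Of the 20, 4 (20%) reached an unadjusted p below 0.05, as did 19.6% of all genes tested. There were 2 in each direction, and none passed after adjustment. The ATPase genes were split, 2 positive and 4 negative. Psmc4 (chromosome 7, 28041707 to 28050101) had the most negative estimate of all members, at 41.6, 47.5 and 44.4 FPKM after CBR-5884, against 52.0 and 52.7 after solvent. All 3 CBR-5884 libraries lay below both solvent libraries (log2 fold change -0.23, SE 0.07, limma unadjusted p = 0.0238, adjusted p = 0.195). Psmc6 (chromosome 14, 45329788 to 45349705) lay on the other side of 0, at 40.5, 43.2 and 40.9 FPKM after CBR-5884, against 35.6 and 38.1 after solvent. Its groups did not overlap (log2 fold change 0.17, SE 0.06, limma unadjusted p = 0.036, adjusted p = 0.228). Psmc3 was at 69.5, 76.4 and 75.9 FPKM after CBR-5884, against 82.4 and 77.9 after solvent, without overlap (limma adjusted p = 0.393). The groups of Psmc1, Psmc2 and Psmc5 overlapped.

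The 2 Psmd genes that reached an unadjusted p below 0.05 both encode proteins that handle the ubiquitin chain, and they lay on opposite sides of 0. Psmd14, the deubiquitinase of the lid (chromosome 2, 61711694 to 61800376), was at 53.7, 51.8 and 49.6 FPKM after CBR-5884, against 47.1 and 43.1 after solvent. It had the largest estimate of all members, with every CBR-5884 library above both solvent libraries (log2 fold change 0.20, SE 0.06, limma unadjusted p = 0.0331, adjusted p = 0.222). Assembled transcripts made up 47.6% of its value in CBR-5884 replicate 3 and 21.4% in solvent replicate 3, and with reference transcripts only the log2 fold change was 0.06 (limma adjusted p = 0.93). Psmd4, a ubiquitin receptor (chromosome 3, 95032694 to 95042614), was at 44.7, 48.9 and 45.9 FPKM after CBR-5884, against 57.0 and 50.9 after solvent. All CBR-5884 libraries lay below both solvent libraries (log2 fold change -0.21, SE 0.07, limma unadjusted p = 0.04, adjusted p = 0.237), and over the alternatives the estimate ran from -0.33 to -0.13.

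The remaining Psmd genes had estimates from -0.18 to 0.15. Psmd2 and Psmd1, the large scaffold genes of the base, had estimates of -0.01 and 0.06, and Psmd2 was at 93.4, 97.8 and 96.2 FPKM after CBR-5884, against 96.5 and 95.9 after solvent. The lid genes Psmd7, Psmd11 and Psmd12 had estimates of 0.01 to 0.05 and overlapping groups. Psmd3, also of the lid, was at 29.1, 34.4 and 31.5 FPKM after CBR-5884, against 35.8 and 35.6 after solvent, without overlap (limma adjusted p = 0.33). Psmd8 was at 159.7, 163 and 160.2 FPKM after CBR-5884, against 156 and 153 after solvent, also without overlap, a difference of 0.06 on the log2 scale (SE 0.04, adjusted p = 0.464 by limma). Exons of Psmc3, Psmd1 and Psmd9 overlap genes on the opposite strand by 215, 252 and 1849 nt, with the same limit as for Psmb7. Those of Psmd1 also overlap Gm21972 on the same strand by 301 nt, which use of the strand would not separate. Smaller overlaps on the opposite strand were 114 nt for Psma4, 60 nt for Psma5 and 17 nt for Psmd3. Psmd13, whose exons overlap those of Sirt3 on the opposite strand by 342 nt, had an estimate of -0.10 and overlapping groups. Among the assembly chaperones Psmd10 was at 18.2, 17.9 and 19.6 FPKM after CBR-5884, against 15.7 and 17.6 after solvent (log2 fold change 0.15, limma adjusted p = 0.355). The other chaperones, Psmd5 and Psmd9, had estimates of 0.07 and -0.14. In all, 4 regulatory genes had every CBR-5884 library above and 4 every CBR-5884 library below both solvent libraries, and 12 overlapped, close to the shares of all genes tested (16.6% above and 24.9% below).

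Psmc3ip, the recombination gene taken in by its symbol, was at 5.07, 8.44 and 4.92 FPKM after CBR-5884, against 7.91 and 4.27 after solvent (limma adjusted p = 0.971). The 2 higher libraries, CBR-5884 replicate 4 and solvent replicate 3, were those where its whole value was on an assembled transcript.

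Gene values sum reference transcripts together with newly assembled transcripts of Cufflinks, and a few subunit values turned on the latter. In 27 of the 34 tested subunit genes assembled transcripts made up at most 5% of the FPKM in every library. Psma4 and Psmc6 carried more in all 5 libraries, Psmd14 in 2 and Psma7, Psmc2, Psmd6 and Psmd8 in 1 each. In CBR-5884 replicate 4 an assembled transcript of 746 nt added 22.9 FPKM to the 41.8 FPKM of the Psmc2 reference transcript of 1785 nt, and the sum of 64.7 stood apart from 44.7 to 49.6 in the other libraries. With reference transcripts only, the log2 fold change of Psmc2 moved from 0.17 to -0.03. In solvent replicate 5 Psma7 gained 37.6 FPKM in the same way and in solvent replicate 3 Psmd6 gained 15.8; with reference transcripts only both estimates moved to 0.06, from -0.15 and -0.18. Psmd8 moved from 0.06 to -0.10 and Psma4 from -0.04 to 0.13. A sum that weights each transcript by its length, so that fragments are conserved, gave 0.06 for Psmc2, -0.09 for Psma7 and -0.10 for Psmd6. This weighting was chosen after the data were seen, and none of these values passed the test.

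**Figure D3:**
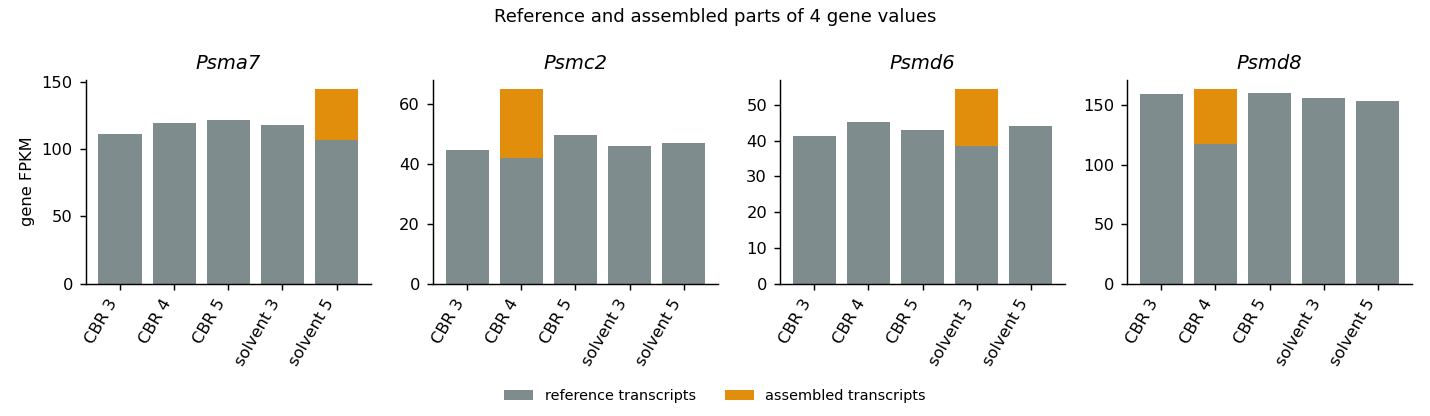
Gene FPKM of Psma7, Psmc2, Psmd6 and Psmd8 in each library, split into reference (grey) and assembled (orange) transcripts. Each gene has 1 library with an assembled part, which lifts Psmc2 to 64.7 FPKM in CBR-5884 replicate 4, against 44.7 to 49.6 in the others.

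Other genes of the proteasome system are given from lists chosen with earlier results of these data known. None of the genes named from them passed the test. Of the immune subunits, Psmb8 was at 85.2, 81.6 and 87.3 FPKM after CBR-5884, against 92.6 and 96.7 after solvent (log2 fold change -0.16, SE 0.05, adjusted p = 0.219 by limma). Psmb9 and Psmb10 had overlapping groups. Psmb10 was at 212 FPKM in CBR-5884 replicate 3 and at 97.1 to 125 in the other 4 libraries; 128 of the 212 lay on an assembled transcript of 351 nt. Without that library its estimate was -0.29, against 0.07 with it. For Psmb9, left without solvent replicate 5, the estimate was 0.00, against -0.45. With reference transcripts only it was -1.39 (adjusted p = 0.727 by limma). In that setting Psmb9 was at 0 in CBR-5884 replicate 5, where its whole value of 34.8 FPKM lay on an assembled transcript. In solvent replicate 5, 38.0 of its 56.7 FPKM were on assembled transcripts.

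The activator genes lay on both sides of 0. Psme1 and Psme2 encode the PA28 alpha and beta chains, which cap the core and are interferon-inducible. Psme1 was at 112, 119 and 117 FPKM after CBR-5884, against 136 and 134 after solvent (log2 fold change -0.21, SE 0.05, limma unadjusted p = 0.00733, adjusted p = 0.141). Psme2 was at 129, 127 and 134 FPKM after CBR-5884, against 151 and 148 after solvent (log2 fold change -0.20, SE 0.04, limma unadjusted p = 0.00905, adjusted p = 0.149). Both had every CBR-5884 library below both solvent libraries and kept a negative estimate in the 17 alternatives, with adjusted p of 0.0906 to 0.385. Psme4, which encodes the nuclear cap PA200, lay on the other side of 0, at 26.5, 26.5 and 26.6 FPKM after CBR-5884, against 23.2 and 24.0 after solvent (log2 fold change 0.16, SE 0.04, adjusted p = 0.176 by limma). Psme3 and the inhibitor gene Psmf1 had estimates of 0.02 and 0.07.

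Of 5 tested genes for core assembly factors, 4 had a negative estimate, as did 55.7% of all genes tested. The list median of -0.29 was the value of Psmg4. Psmg1, which encodes a chain of a chaperone pair for the alpha ring, was at 7.08, 7.48 and 7.32 FPKM after CBR-5884, against 10.3 and 9.32 after solvent (log2 fold change -0.38, SE 0.06, limma unadjusted p = 0.00281, adjusted p = 0.126). Psmg4, also an alpha ring chaperone, was at 20.8, 20.8 and 20.1 FPKM after CBR-5884, against 24.3 and 26.8 after solvent (log2 fold change -0.29, SE 0.06, adjusted p = 0.137 by limma). In both, every CBR-5884 library lay below both solvent libraries, as in 24.9% of all genes tested. For the most abundant reference transcript the log2 fold change of Psmg4 was -0.08 (adjusted p = 0.828 by limma). Pomp, which guides the beta ring, was at 152, 157 and 158 FPKM after CBR-5884, against 141 and 159 after solvent (log2 fold change 0.05, limma adjusted p = 0.695). The core subunit genes that these factors assemble had a median of -0.02.

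Regulatory proteins under other symbols had 5 of 6 estimates above 0, where 44.3% of all genes tested did, and a median of 0.12. Ecpas, which encodes a protein that tethers core and regulatory particle, was at 22.2, 22.2 and 21.8 FPKM after CBR-5884, against 18.9 and 18.8 after solvent (log2 fold change 0.22, SE 0.04, limma unadjusted p = 0.00466, adjusted p = 0.132). Adrm1, a ubiquitin receptor, had the smallest estimate of this list, -0.06, which became -1.51 with reference transcripts only (adjusted p = 0.687 by limma). That of Ecpas became 0.38 in the same setting (adjusted p = 0.288 by limma). The shuttle receptors, which bring ubiquitinated proteins to the proteasome, had a median of 0.00 over 6 genes and none below an unadjusted p of 0.05. Their estimates ran from -0.31 for Ubqln4 to 0.16 for Ubqln1. Over the alternatives the estimate of Ubqln4 ran from -0.52, without solvent replicate 5, to -0.10, with reference transcripts only.

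Of the ubiquitin genes, Rps27a, which encodes ubiquitin fused to a ribosomal protein, was at 420.5, 404 and 418 FPKM after CBR-5884, against 463 and 458 after solvent (log2 fold change -0.15, SE 0.04, limma unadjusted p = 0.0148, adjusted p = 0.171). All CBR-5884 libraries lay below both solvent libraries. Reads of Rps27a may be shared with processed copies, which makes its value uncertain; over the alternatives the estimate ran from -0.16 to -0.06. Ubb, a polyubiquitin gene, had an estimate of -0.06 (limma adjusted p = 0.422). Uba1, the ubiquitin-activating enzyme, had an estimate of -0.04, which turned positive with reference transcripts only and under other scalings.

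Genes of the NFE2L1 pathway, through which cells adjust proteasome subunit expression, had 4 positive and 8 negative estimates (median log2 fold change -0.02), none below an unadjusted p of 0.05. Nfe2l1 itself was at 36.6, 38.2 and 37.3 FPKM after CBR-5884, against 39.5 and 37.1 after solvent (limma adjusted p = 0.75). Ddi2, the protease that activates its product, was at 28.0, 28.9 and 26.6 FPKM after CBR-5884, against 28.7 and 28.1 after solvent (limma adjusted p = 0.79). In both genes the groups overlapped. The extremes of the list were Maff, a small partner protein gene of low level, at 0.28 (0.11 to 0.66 over the alternatives), and Ufd1, a cofactor of the VCP segregase, at -0.14 (0.08 with reference transcripts only).

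**Figure D4:**
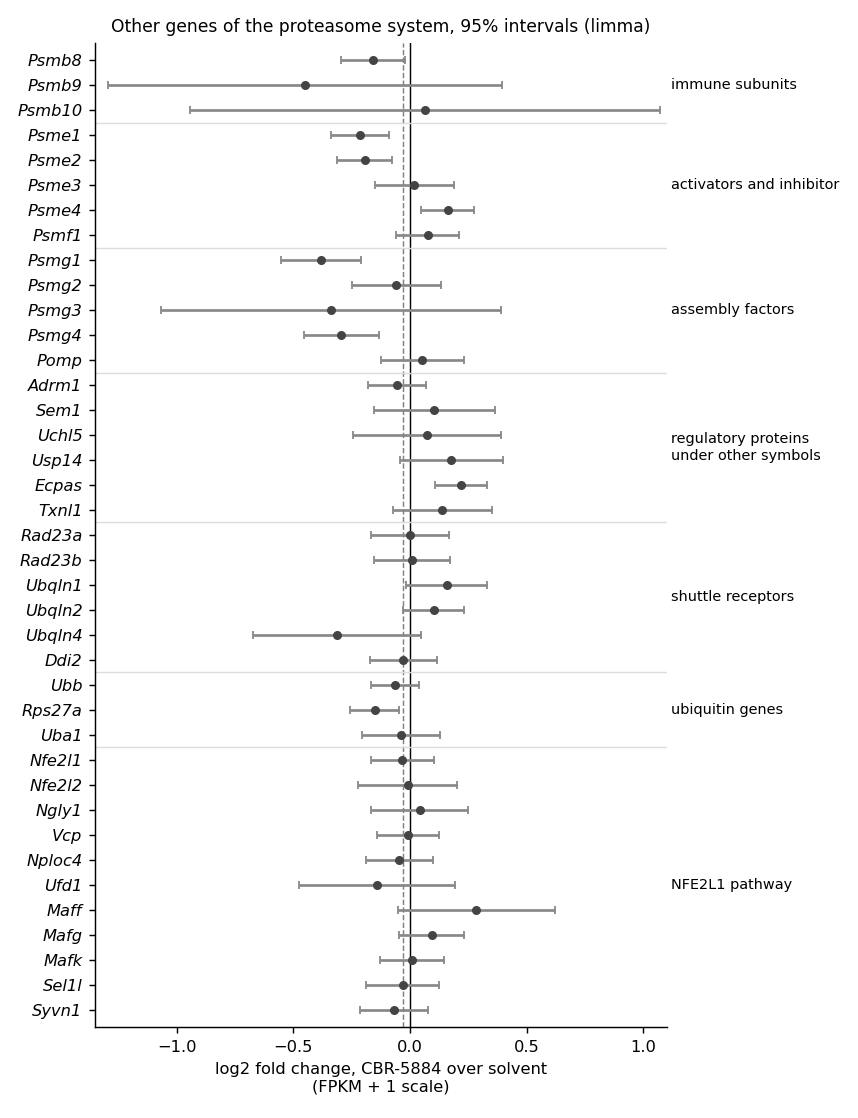
Log2 fold change, CBR-5884 over solvent on the log2(FPKM + 1) scale, of other genes of the proteasome system by list, with points for limma's estimate and bars for its 95% interval; the dashed line marks the median of all genes tested. Psme1, Psme2, Psmg1 and Psmg4 lie below 0, Psme4 and Ecpas above, and none passed the adjusted threshold.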

How the data were processed

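The deposited files list FPKM per transcript, which the authors obtained from Cufflinks separately for every library, per the file contents. The submitters' processing notes name Bowtie2, TopHat2, Cufflinks and mm10 (GRCm38); for versions, annotation release and strand setting the sources used here give nothing. Libraries were directional with single 75 bp reads, per the labels' protocols.

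GENCODE M21 linked reference transcripts to genes (99.5% matched). Assembled transcripts of at least 200 nt went to the gene on their strand covering at least 50% of their exonic bases. Shorter or unplaced ones were not used, nor were reference transcripts without a match. Together these held 64.0% to 70.3% of summed FPKM. Gene FPKM was the sum over the transcripts of a gene that were used. CBR-5884 and solvent were compared with limma 3.58.1 in R 4.3.3 (variance trend, two-sided, Benjamini-Hochberg adjustment) on log2(FPKM + 1), which understates the change of low genes, over the 10770 genes whose mean FPKM reached 1. The fit was tested on simulated data, with set changes larger than any estimate of the subunit genes. That test does not bear on shifts of the size seen in the subunit genes. Named with full statistics were members and list genes with an unadjusted p below 0.05, the extremes of each list and the 3 proteolytic genes. Other members were named where groups did not overlap, or by range, and Gclm, Nfe2l1, Ddi2, Pomp, Psmb10 and some cell type markers after their values were seen. The members and lists were chosen with earlier results of these data known. Paaf1 had no match by symbol, and some genes of the lists are not reported here. Alternatives, 16 planned and 1 added, are in the closing section.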

Additional observations from a re-analysis of the deposited data

How the results depend on the processing

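No member was called in any of the 17 alternatives, where the lowest adjusted p was 0.0796 (Psmd14, fragment-weighted sum). Members at an unadjusted p below 0.05 numbered 5, where 19.6% of all genes tested reached it. With reference transcripts only they numbered 3 (13.6% of all genes tested), and for the most abundant reference transcript 3 (12.4%). Without 1 CBR-5884 library they numbered 1 to 4 (14.2% to 16.2% of all genes tested), with 1 when replicate 5 was left out. The share over all genes thus fell in these settings too. The core median of -0.017 became 0.034 for the most abundant reference transcript and 0.031 under TPM scaling, where Psma8 entered as a member tested. The median of all genes tested was -0.031 in the main fit, -0.034 for the most abundant reference transcript and 0.0077 under TPM scaling. Under quantile and median ratio scaling that median of all genes was 0.013 and 0.0036. The regulatory median was -0.021 to 0.048 over the alternatives. Over all genes the 24 calls became 16 with a pseudocount of 0.1 or of 5, 9 at a mean FPKM of at least 5, 38 with no filter, 39 with reference transcripts only, 68 with the fragment-weighted sum, 89 without solvent replicate 3 and 66 without solvent replicate 5. At an unadjusted p below 0.05 the split of 780 higher to 1334 lower became 1170 to 1017 under TPM, 1163 to 945 under quantile and 1091 to 1003 under median ratio scaling.

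Of 35 members 19 kept their sign throughout. Signs turned as follows, and the cause was not tested unless given. With reference transcripts only and with the most abundant one, where assembled transcripts drop out, log2 fold changes were -0.035 (Psmc2), -0.10 (Psmd8), 0.061 (Psma7), 0.062 (Psmd6), 0.13 (Psma4), -0.37 (Psmb10), 0.083 (Ufd1) and 0.14 (Uba1), and with the latter 0.11 (Psma6). TPM, quantile and median ratio scaling gave 0.031, 0.036 and 0.026 (Psma6), 0.038, 0.035 and 0.032 (Psmd2), 0.040, 0.049 and 0.035 (Psma5) and 0.0052, 0.0040 and 0.00026 (Uba1); TPM and median ratio gave 0.022 and 0.017 (Psmb6). The fragment-weighted sum gave -0.21 (Psmb10), 0.014 (Ufd1) and 0.015 (Psma6). Without 1 library the ranges were -0.023 to 0.061 (Psmb1), -0.036 to 0.14 (Psma2), -0.055 to 0.090 (Psmd11), -0.0053 to 0.10 (Psmd12), -0.022 to 0.060 (Psmd7), -0.021 to 0.011 (Psmd2), -0.042 to 0.026 (Psma6), -0.049 to 0.044 (Psma5), -0.034 to 0.13 (Psmb7), -0.35 to 0.40 (Psmc3ip), -0.035 to 0.14 (Pomp), -0.29 to 0.27 (Psmb10), -0.90 to 0.0040 (Psmb9) and -0.073 to 0.0079 (Uba1).

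Replicate numbers 3 and 5 occur in both groups, but the labels do not say what they share, and deviations from the group means correlated at only 0.07 and 0.08 between same-numbered libraries. With the replicate block, to which CBR-5884 replicate 4 adds nothing, no member and 3 of all genes were called. In that fit 4 members had an unadjusted p below 0.05, where 13.9% of all genes tested did. Its log2 fold changes were -0.0053 (Psmd12), -0.022 (Psmd7) and -0.19 (Psmc3ip).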
